A study of Mus musculus with 6 samples.

Results

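The genes described here are the replication-dependent histone genes of the mouse, 67 of the 21951 protein-coding genes in the GENCODE M21 annotation, taken by symbol (every symbol that opens with Hist1h, Hist2h, Hist3h or Hist4h). They comprised 6 genes for the linker histone H1, 18 for H2A, 18 for H2B, 12 for H3 and 13 for H4. Their bodies were short, with a median of 539 bp against 17528 bp for all other protein-coding genes, and 62 of the 67 had single-exon transcripts only. Each gene was read over a window of its body plus 1 kb on each side, and 55 of the 67 windows overlapped the window of another histone gene.

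H3K79me2, dimethylation of lysine 79 of histone H3, had been mapped by ChIP-seq in the mouse neuroblastoma line N2a. Cells were transfected with a plasmid for a non-target hairpin, pLKO.1-shCTR (CTR), or for a hairpin against Npm1, pLKO.1-shNpm1 (NPM1 KD), and were collected after 3 days. The labels give puromycin selection from 24 h after transfection for the knockdown experiments, so each library came from a bulk population of selected cells and not from a clone. Each group had 2 libraries, from 2 passages with separate transfection batches, and 1 pooled input that was not analysed here. Npm1 RNA or protein was not measured in these files, so the knockdown itself was not checked here.

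Replication-dependent histone genes supply the core and linker histones that package new DNA, and most are transcribed in S phase from a few dense clusters. Their transcription depends on the coactivator NPAT, and their mRNAs end in a stem-loop bound by SLBP instead of a poly(A) tail. H3K79 is methylated by DOT1L, and the dimethylated form is known as a mark of the transcribed part of active genes, strongest shortly downstream of the start.

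The stem-loop was looked for first, as a check on the gene set that uses no ChIP-seq value. The search took the coding strand from 200 bases before to 200 bases after the annotated end of each gene and asked for a 6-base stem opening with GG, a 4-base loop and the exact complement of the stem. Such a site was present in 43 of the 67 histone genes (64.2%) and in 146 of 21884 other protein-coding genes (0.667%). By class it was found in 2 of 6 H1, 15 of 18 H2A, 11 of 18 H2B, 8 of 12 H3 and 7 of 13 H4 genes. The commonest site, shared by 27 genes, was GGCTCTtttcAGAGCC. The 43 include Hist2h2ab and Hist2h2ac, which share 1 site read on opposite strands, and Hist1h3d, whose site GGTCTCccatGAGACC lay 156 bases past its annotated end. A miss says only that no perfect site lies in that stretch of sequence. The sites of 6 genes are printed 5′ to 3′ on the coding strand from RefSeq GRCm38.p6, with the paired stem in capitals, because they show both the constant core and where members part from it:
Hist1h1b, chr13:21779837-21779852: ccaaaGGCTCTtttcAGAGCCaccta
Hist1h2ae, chr13:23570668-23570683: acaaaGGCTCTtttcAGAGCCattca
Hist1h2ak, chr13:21753382-21753397: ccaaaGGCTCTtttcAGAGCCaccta
Hist1h3g, chr13:23535889-23535904: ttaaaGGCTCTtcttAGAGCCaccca
Hist1h4h, chr13:23531458-23531473: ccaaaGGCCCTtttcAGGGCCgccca
Hist2h3b, chr3:96269135-96269150: acaaaGGCTCTtttcAGAGCCaccta
The coordinates cover stem and loop. Hist1h4h, an H4 gene, differs from the others in its stem, and Hist1h3g, an H3 gene, in its loop.

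The genes also share promoter letters. RefSeq promoters (250 bases before to 50 after the start) were matched for 62 of the 67 genes and searched on both strands for the TATA box TATAAA, for the sequence CCAAT and for the octamer ATTTGCAT, none of which contains another. TATAAA was present in 35 of the 62 (56.5%) against 13.6% of all 32851 RefSeq promoters, CCAAT in 53 (85.5%) against 37.4%, and ATTTGCAT in 13 (21%) against 1.74%. CCAAT was in all 50 matched promoters of H1, H2A, H2B and H3 genes and in 3 of 12 of H4 genes. The octamer was in 7 of 18 H2A and 6 of 16 H2B promoters and in none of the H1, H3 and H4 promoters. These are matches of letters, not sites of bound factors.

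There were 12 pairs of H2A and H2B genes that start head to head, with 175 to 305 bp between the annotated starts, so both genes of a pair share a promoter sequence and a large part of a window. The sequences between 2 such pairs are printed on the plus strand of GRCm38.p6 with the 3 motifs in capitals in either orientation. Both genes of the first pair had broad peaks in their windows in both NPM1 KD libraries (Hist1h2bg also in CTR 1), though none touched the printed sequence. The second pair had no peak in any library, so they are 1 example of each outcome:
Hist1h2ae to Hist1h2bg, chr13:23571221-23571395: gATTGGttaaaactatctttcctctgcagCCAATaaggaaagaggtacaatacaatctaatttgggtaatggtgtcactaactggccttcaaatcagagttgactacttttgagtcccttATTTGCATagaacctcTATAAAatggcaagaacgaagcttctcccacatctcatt
Hist1h2ag to Hist1h2bj, chr13:22042945-22043213: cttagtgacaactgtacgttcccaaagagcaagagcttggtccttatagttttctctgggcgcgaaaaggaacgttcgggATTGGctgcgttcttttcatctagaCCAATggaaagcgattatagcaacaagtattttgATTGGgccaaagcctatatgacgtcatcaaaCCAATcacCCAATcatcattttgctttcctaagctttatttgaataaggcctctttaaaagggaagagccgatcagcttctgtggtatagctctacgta
The first holds all 3 motifs, and the second holds CCAAT alone. Other pairs were the reverse. The sequence between Hist1h2ba and Hist1h2aa holds all 3 motifs, and neither gene had a peak in any library. That between Hist1h2bf and Hist1h2ad holds CCAAT alone, though the RefSeq promoters of both genes, which reach past it, also hold TATAAA. Both of these genes had broad peaks in CTR 1 and in both NPM1 KD libraries. The 250 bases before the start of Hist1h1b, on the minus strand, are printed as well because this H1 gene had the highest coverage of its class:
Hist1h1b, chr13:21780626-21780875: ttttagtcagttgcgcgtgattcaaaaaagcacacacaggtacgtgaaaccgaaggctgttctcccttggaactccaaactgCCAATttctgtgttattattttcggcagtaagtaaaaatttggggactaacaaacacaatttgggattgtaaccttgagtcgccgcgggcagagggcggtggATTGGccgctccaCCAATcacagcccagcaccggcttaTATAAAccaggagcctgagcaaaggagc

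The files held peaks and no read counts, and the number of reads per library is unknown. The median background pileup recovered from the narrow peaks, which scales with depth, was 11.9 and 7.65 in the CTR libraries and 8.99 and 11.8 in the NPM1 KD libraries, so each group had a deeper and a shallower library. Peaks had been called per library, from 73801 to 88348 narrow and from 34845 to 48764 broad peaks, and p-values between 2 and 2 libraries cannot fall below 0.333 in an exact permutation test.

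More histone genes carried H3K79me2 peaks in NPM1 KD than in CTR. A broad peak shared at least 1 bp with 32 and 24 of the 67 windows in the CTR libraries and with 47 and 43 in the NPM1 KD libraries (28 ± 5.66 against 45 ± 2.83, SD, n = 2 each). The 2 groups did not overlap, and the two-sided exact permutation test gave p = 0.333, the smallest it can give. The narrow lists gave 33, 24, 45 and 45 windows in the same order. For other protein-coding genes the share of windows with a broad peak was 52.9%, 51.5%, 53.4% and 52.5%.

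The mean share of a histone gene window under broad peaks was 16.3% and 12.3% for CTR and 29.6% and 24.6% for NPM1 KD, a difference of 12.8 percentage points (exact permutation test, two-sided, p = 0.333, n = 2 each). Within replicate 1 the difference was 13.3 points and within replicate 2 it was 12.3. For all other protein-coding genes the groups differed by 1.90 points (25.5% to 27.4%), and for the 2337 other genes with a body of at most 3 kb by 1.01 points (17.0% to 18.0%). The histone genes thus lay 9.91 and 12.4 points below other genes in the CTR libraries, 1.53 points above them in NPM1 KD 1 and 2.06 points below them in NPM1 KD 2.

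The libraries were also compared in pairs of similar recovered background. CTR 1 and NPM1 KD 2 were nearest in recovered background, and of the 67 genes 40 had more covered bases in NPM1 KD 2, 3 had fewer and 24 had the same number. Between the shallower libraries, 47 genes had more covered bases in NPM1 KD 1 than in CTR 2, none had fewer and 20 were equal. The shares over all genes were not taken for these pairs, so the counts cannot be read as particular to histone genes.

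In 38 of the 67 windows (56.7%) both NPM1 KD libraries had more bases under broad peaks than both CTR libraries, against 24.9% of all protein-coding genes, and in 0 windows both had fewer, against 1.52% of all genes. The count was 11 with only peaks of −log10 q of at least 5, and 17, with 1 below, over the gene body alone. The share over all genes was not taken at these settings, so these counts cannot be set against 24.9%. All 47 histone genes with a broad peak in any library had a higher mean covered length in NPM1 KD, and the other 20 had no broad peak in any library. Among other genes with a broad peak in any library, the mean was higher in NPM1 KD for 9632 and lower for 1801. Because neighbouring windows overlap, they were also merged into 34 separate stretches, a choice made after seeing the data. Of these 34 stretches, 25 had more covered bases in each NPM1 KD library than in either CTR library, and none had fewer. Windows of other genes were not merged, so no share over all genes stands beside this count.

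No single histone gene passed the test across all genes. The fit with limma on log2(covered bp + 500) called 1 of 11885 tested genes (0.00841%) at an adjusted p under 0.05, and 0 of the 47 histone genes tested. With the replicate number as a block it called 0 of 11885. At an unadjusted p under 0.05 there were 19 of the 47 histone genes, all higher in NPM1 KD, and 1740 of all 11885 genes. The lowest adjusted p among histone genes was 0.085, for Hist1h2ae, followed by 0.0929 for Hist1h2ak, both H2A genes. With a pseudocount of 100 bp both passed (adjusted p = 0.0117 and 0.0276).

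**Figure D1:**
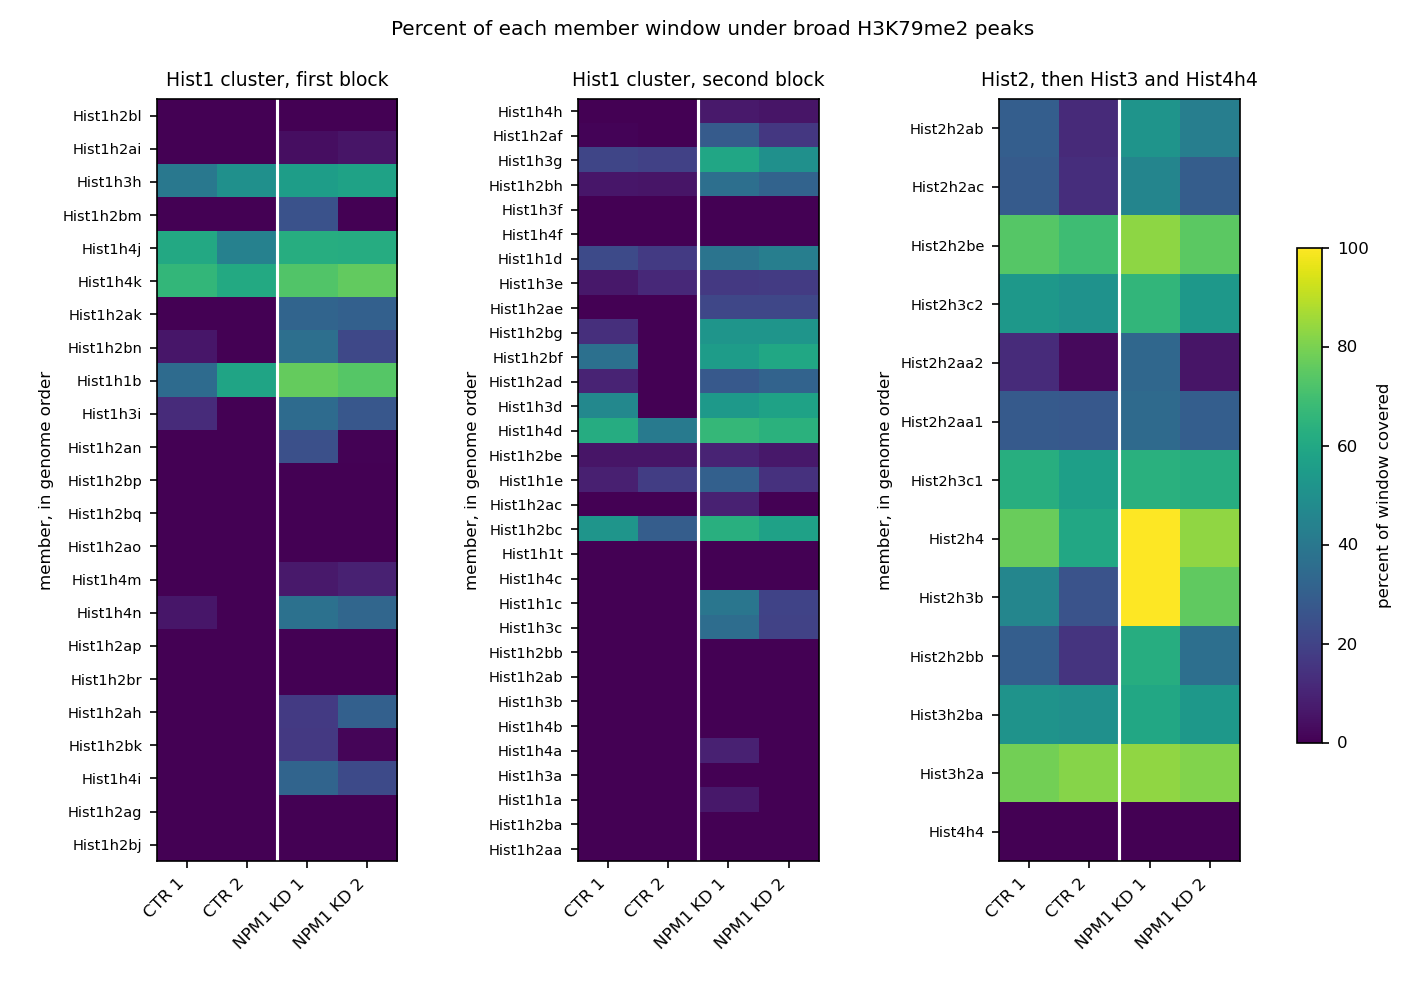
Heat map of the percent of each histone gene window (body plus 1 kb each side) under broad H3K79me2 peaks, by library, with genes in genome order and a white line between CTR and NPM1 KD. The darkest cells are windows with little or no coverage, and the 10 Hist2 genes carry peaks in every library, up to 100% of the window of Hist2h4 and Hist2h3b in NPM1 KD 1.

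Among the 6 H1 genes, which encode the linker histones that bind DNA between nucleosomes, 3 had covered lengths that did not overlap between groups, all 3 higher in NPM1 KD, beside 24.9% of all genes. Hist1h1b (H1.5, chr13:21779883-21780625) had 954 and 1600 covered bp in CTR and 2093 and 2021 bp in NPM1 KD. All words of 51 bases, the read length, in its window occur once in the genome. Hist1h1d had 2127 and 1618 bp in CTR against 3625 and 4014 bp in NPM1 KD, over a body of 7425 bp. Hist1h1c had no broad peak in CTR and 1394 and 719 bp in NPM1 KD. The groups overlapped for Hist1h1e, with 347 and 708 bp against 1198 and 565 bp, and Hist1h1a had 176 bp in NPM1 KD 1 alone. Hist1h1t, the testis H1 gene, had no peak of either kind.

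The 18 H2A genes had a broad peak in 7 and 5 windows in CTR and in 13 and 12 in NPM1 KD. The most covered was Hist3h2a (chr11:58954685-58956830), with 3265 and 3401 bp in CTR and 3457 and 3366 bp in NPM1 KD, which overlapped. Its neighbour Hist3h2ba, an H2B gene, had 1347 and 1307 bp against 1572 and 1396 bp, which did not. Hist1h2ae had no covered base in either CTR library and 571 and 575 bp in NPM1 KD (log2 difference 1.10 ± 0.0186 SE on the log2(bp + 500) scale). Hist1h2ak likewise had none in CTR and 772 and 732 bp in NPM1 KD (1.32 ± 0.027 SE). With both CTR values at 0 these differences are set by the pseudocount, and with 100 bp in place of 500 bp they were 2.75 for Hist1h2ae and 3.09 for Hist1h2ak. The small SE also rests on these 0 values, which leave no spread within CTR. Neither gene passed the limma test, and no broad peak touched either gene body in any library. Hist2h2ab had 729 and 295 bp in CTR and 1267 and 1041 bp in NPM1 KD, and its neighbour Hist2h2ac had 727 and 330 bp against 1145 and 744 bp.

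The 18 H2B genes had a broad peak in 9 and 6 windows in CTR and in 11 and 10 in NPM1 KD. Hist2h2be (chr3:96221119-96223738) was the most covered, with 3410 and 3188 bp in CTR and 3834 and 3448 bp in NPM1 KD. The largest difference in covered length of any histone gene was at Hist1h2bc, with 5581 and 3142 bp in CTR and 6766 and 6136 bp in NPM1 KD over a long annotated body of 8710 bp. Hist1h2bg, the head-to-head partner of Hist1h2ae, had 356 and 0 bp against 1364 and 1368 bp. Hist1h2bh had 217 and 209 bp against 1341 and 1171 bp, so that its groups lay far apart relative to the spread within each. Hist1h2bl, Hist1h2bp, Hist1h2bj, Hist1h2bb and the testis gene Hist1h2ba had no peak of either kind.

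The 12 H3 genes had a broad peak in 8 and 6 windows in CTR and in 9 windows in both NPM1 KD libraries, and their mean coverage was 20.9 ± 4.32% in CTR and 37.7 ± 3.79% in NPM1 KD. Hist2h3b (chr3:96268654-96269141) had 1143 and 635 covered bp in CTR and 2488 and 1877 bp in NPM1 KD, where the whole window was covered in NPM1 KD 1. Hist1h3g (chr13:23535422-23535951) had 524 and 491 bp against 1495 and 1270 bp. Hist1h3d had 1511 bp in CTR 1 and none in CTR 2, against 1755 and 1866 bp. Its CTR libraries therefore differed from each other more than CTR 1 differed from NPM1 KD. Hist1h3a and Hist1h3b had no peak of either kind.

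The 13 H4 genes had a broad peak in 5 and 4 windows in CTR and in 9 and 8 in NPM1 KD. Hist2h4 (chr3:96261682-96263311) was the most covered, with 2804 and 2173 bp in CTR and 3630 and 3029 bp in NPM1 KD. Hist1h4k had 1534 and 1408 bp against 1688 and 1756 bp, a small separation next to that of Hist1h4i (chr13:22040636-22041362), with no covered base in CTR and 880 and 609 bp in NPM1 KD. Hist1h4n had 147 and 0 bp against 908 and 805 bp, but 11.8% of the words of its window occur once in the genome. Hist4h4, alone on chromosome 6, and Hist1h4b, Hist1h4c and Hist1h4f had no peak of either kind.

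The clusters differed widely in how much of them carried the mark. Members at most 500 kb apart formed the Hist3 cluster on chromosome 11 (2 genes, 9.91 kb), a first and a second block of the Hist1 cluster on chromosome 13 (23 genes in 330 kb and 31 genes in 406 kb), and the Hist2 cluster on chromosome 3 (10 genes, 52.3 kb), with Hist4h4 apart. The Hist2 cluster was 49.5% and 41.6% covered by broad peaks in CTR and 68.6% and 58.7% in NPM1 KD. The first Hist1 block was 8.24% and 7.94% covered in CTR against 13.6% and 13.0%, and the second 3.88% and 2.32% against 7.17% and 6.43%. The Hist3 cluster was 78.3% and 79.3% covered in CTR and 82.5% and 79.8% in NPM1 KD, a difference of 2.38 points, and NPM1 KD 2 lay 0.545 points above CTR 2. Hist3h2a and Trim17, another gene of that cluster, start at the same annotated base on the same strand, so their peaks cannot be told apart. In all 4 clusters the groups did not overlap, and each exact permutation test reached its floor (p = 0.333, two-sided, or 0.417 after adjustment over the 5 loci).

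**Figure D2:**
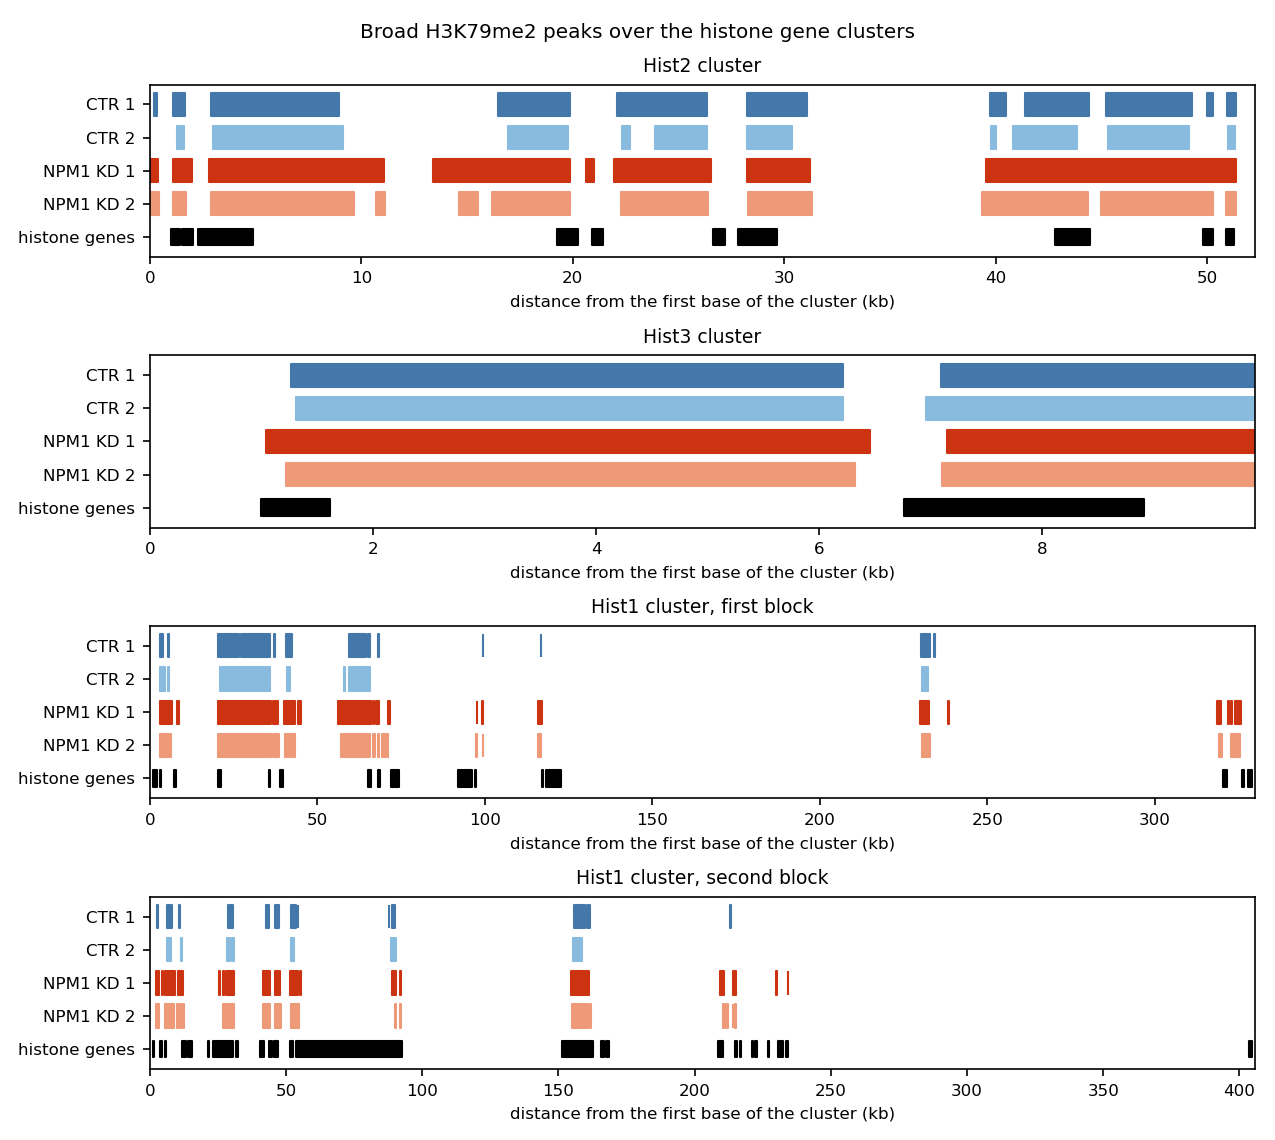
Broad H3K79me2 peaks of the 4 libraries (coloured bars) and histone gene bodies (black) along the 4 clusters, in kb from the first base of each cluster. In the first Hist1 block, the run of genes at the right end, from Hist1h2ah to Hist1h2bj, holds peaks in the NPM1 KD libraries alone.

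In the first Hist1 block the histone gene windows held 21% and 20.7% of the covered bases in CTR and 29% and 25.9% in NPM1 KD, so most of the covered bases lay outside them. In these windows 11.9% and 11.3% of bases were covered in CTR and 27.1% and 23.1% in NPM1 KD, against 7.62% and 7.37% and then 11.3% in both NPM1 KD libraries outside the windows. In the second block the windows held between 85.3% and 91.1% of the covered bases. They were 12.0% and 7.28% covered in CTR and 22.1% and 18.9% in NPM1 KD, while the sequence between them was at 0.577% and 0.291% in CTR and 1.09% and 1.33% in NPM1 KD. When members were joined only up to 100 kb, the separate run of 5 genes from Hist1h2ah to Hist1h2bj had no covered base in either CTR library and was 25.8% and 32% covered in NPM1 KD. The 2 testis genes at the far end of the second block, Hist1h2ba and Hist1h2aa, formed a run with no covered base in any library.

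In each library more of the downstream flank than of the body was covered. Over the 1 kb upstream of the start, 5.53% and 3.19% of bases were covered in CTR and 15.9% and 11.4% in NPM1 KD. Over the bodies the values were 20.1% and 14.0% in CTR and 30.0% and 26.2% in NPM1 KD, and over the 1 kb downstream of the end 23.3% and 19.7% in CTR and 41.7% and 35.5% in NPM1 KD. Other genes with bodies of at most 3 kb had more coverage in the body than downstream, for example 18.6% against 16.1% in CTR 2.

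The profile around the start showed the same order. At the start itself 1.49% of histone genes lay under a broad peak in each CTR library, 7.46% in NPM1 KD 1 and 5.97% in NPM1 KD 2, whereas 25.3% to 31.6% of all other genes did. Coverage of histone genes was highest 1700 to 1900 bp downstream of the start, at 35.8% and 28.4% of genes in CTR and 52.2% and 50.7% in NPM1 KD. For all other genes it was highest 1000 to 1400 bp downstream, at 42.2% to 44.2% of genes. Since histone genes stand close together, the coverage beyond a gene includes that of its neighbours, and the part of each was not tested.

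**Figure D3:**
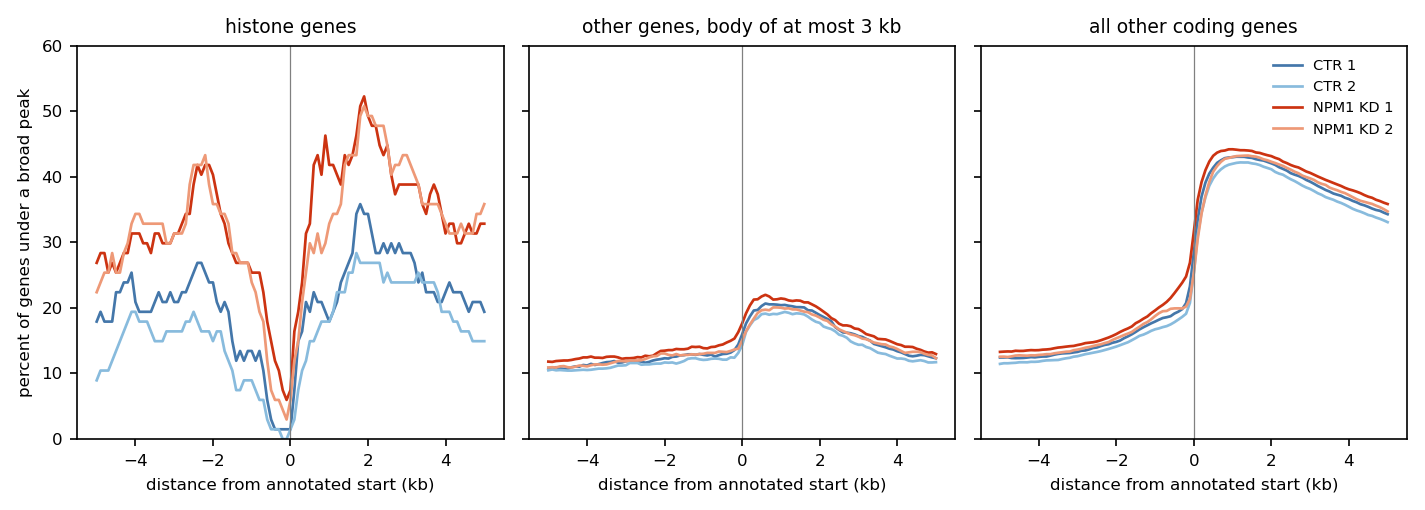
Percent of genes under a broad peak at each 100 bp step from 5 kb before to 5 kb after the annotated start, for the histone genes and for 2 sets of other genes, 1 line per library. The histone gene lines lie between 1.49% and 7.46% at the start, and the NPM1 KD lines run above the CTR lines on both sides.

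A set of histone genes had broad peaks in their windows in NPM1 KD and none in CTR. Of the 67 histone genes, 24 had a broad peak in all 4 libraries, 8 in all but CTR 2, 11 in both NPM1 KD and no CTR library, 4 in NPM1 KD 1 alone and 20 in none. The 11 compare with 68 of all 21951 protein-coding genes with that pattern (0.310%), so 57 were other genes, and no histone gene had a broad peak in CTR alone. Among genes with no broad peak in either CTR library, 11 of 35 histone genes (31.4%), 57 of 10267 other genes (0.555%) and 2 of 1737 other genes with short bodies (0.115%) had one in both NPM1 KD libraries. In the narrow lists 7 histone genes and 50 other genes had the pattern. The 8 genes that lacked a broad peak in CTR 2, the shallowest library, were Hist1h2bn, Hist1h3i, Hist1h4n, Hist1h2af, Hist1h2bg, Hist1h2bf, Hist1h2ad and Hist1h3d, and in each both NPM1 KD libraries had more covered bases than CTR 1.

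The 11 genes were Hist1h2ai, Hist1h2ak, Hist1h2an, Hist1h4m, Hist1h2ah, Hist1h2bk and Hist1h4i in the first Hist1 block and Hist1h4h, Hist1h2ae, Hist1h1c and Hist1h3c in the second. All 5 classes were represented, with 5 H2A genes and 3 H4 genes. Their peaks had an average fold over background between 1.76 and 2.68, on both sides of the medians over all broad peaks of the NPM1 KD libraries, which were 2.1 and 2.0. The smallest overlap was 12 bp of the window of Hist1h2an in NPM1 KD 2, and the largest was 1394 bp at Hist1h1c in NPM1 KD 1. The 4 genes with a broad peak in NPM1 KD 1 alone were Hist1h2bm (633 bp), Hist1h2ac (404 bp), Hist1h4a (233 bp) and Hist1h1a (176 bp). Hist1h2ao, Hist1h2af and Hist1h3f had narrow peaks in NPM1 KD only, but Hist1h2af had a broad peak of 28 bp of its window in CTR 1 and the other two had no broad peak. In several of the 11, among them Hist1h2ak and Hist1h2ae, the covered bases were the edge of a peak that CTR 1 also had outside the window. At Hist1h2ai the NPM1 KD peaks began 2.966 and 2.916 kb into the block, and the CTR peaks at 3.067 and 3.094 kb. Only at Hist1h1c and Hist1h3c did a broad peak touch the gene body. A missing peak in CTR means that no region passed the caller at that depth and not that the mark was absent.

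The strength of the peaks was compared for genes with a narrow peak in all 4 libraries, which 22 histone genes had. The value is the highest summit fold, the ratio of pileup to local background, among narrow peaks that touch the window. Histone genes stood low on this scale, with a median fold of 5.01, 4.57, 6.41 and 4.85 in CTR 1, CTR 2, NPM1 KD 1 and NPM1 KD 2, against 15, 14.2, 15.2 and 12.9 for other genes. In 12 of the 22 the fold was higher in each NPM1 KD library than in either CTR library, against 8.62% of all 11284 genes, and in 0 of the 22 it was lower in each, against 28.0% of all genes. Neighbours could take the same peak, as Hist1h4d and Hist1h2be did, so the 22 values do not come from 22 peaks. The median log2 difference was 0.33 for the 22 histone genes and -0.09 for other genes. Among genes with a mean fold under 5, both NPM1 KD libraries were above CTR in 8 of 10 histone genes and in 335 of 1508 other genes.

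Hist1h1b had folds of 5.74 and 6.82 in CTR and 7.91 and 8.45 in NPM1 KD. Hist1h1d had 2.33 and 2.54 against 2.90 and 3.68, and Hist1h4d 2.48 and 3.01 against 4.61 and 3.44. These 3 genes did not overlap between groups, whereas Hist3h2a, with the highest fold of the set, did (20.2 and 20.2 against 17.9 and 20.7). The limma fit on log2 fold called 13 of 11284 genes (0.115%) and 0 of the 22 histone genes, of which the lowest adjusted p was 0.84. There were 407 genes, 6 of them histone genes and all 6 higher in NPM1 KD, at an unadjusted p under 0.05.

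With the replicate number as a block, limma called 63 genes, among them Hist1h4j (log2 difference 0.92 ± 0.208 SE, adjusted p = 0.038). Its folds were 3.57 and 3.93 in CTR and 4.21 and 11.9 in NPM1 KD, and both NPM1 KD values came from peaks whose summit lay outside its window, for NPM1 KD 2 in that of its neighbour Hist1h4k. Hist2h2ac had 7.22, 7.40 and 8.61 in CTR 1, CTR 2 and NPM1 KD 1 from a peak that reached its window from Hist2h2be and 2.03 in NPM1 KD 2, where that peak did not reach it. When only peaks with the summit inside the window were used, an alternative chosen after seeing the data, 17 histone genes had a value in all 4 libraries, with 9 of them above (9.27% of all 10650 such genes) and 0 below (26.5%).

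**Figure D4:**
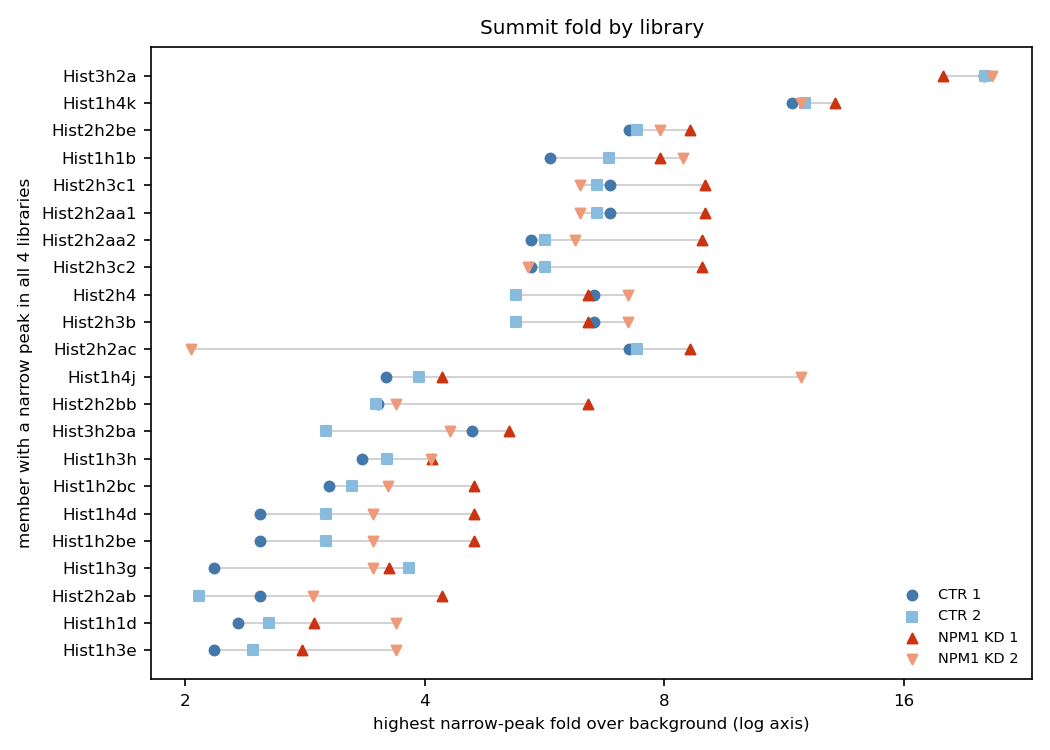
Highest narrow-peak fold over background (log axis) for the 22 histone genes with a narrow peak in all 4 libraries, 1 symbol per library. Most red symbols (NPM1 KD) stand right of the blue ones (CTR), and the 2 longest lines are Hist1h4j, whose NPM1 KD values come from peaks with the summit outside its window, and Hist2h2ac, whose 3 high values come from a peak that reaches in from Hist2h2be.

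The copies among these genes limit how far single members can be read. Histone coding sequences are nearly the same within a class, and 30 of the 67 bodies had fewer than 50% of their 51-base words found once in the reference genome, with 4 bodies entirely unique. The windows were better, at a median of 84.7% unique words, because the flanks differ. Hist1h2bq and Hist1h2br had 0% unique words in the whole window, and Hist1h2ao and Hist1h2ap had 2.1% and 1.73%.

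The 2 kinds of list parted at such windows. Hist2h3c2, an H3 gene, was 55.8% covered on average over the 4 libraries in the broad lists and 87.4% in the narrow lists, and Hist2h2aa1, an H2A gene of the same cluster, 30.1% and 68.3%. Hist1h2br had no broad peak at all and was 19.4% covered in the narrow lists. At Hist1h1b, with unique words throughout, the order was the other way, 60.8% in the broad and 42.6% in the narrow lists. The names of the broad peaks carry a filtering step that the names of the narrow peaks lack, and its part in these values was not tested.

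The difference between groups was present on both sides of a cut at 80% unique words. In the 39 windows with at least 80% unique words, mean broad coverage was 21.2% and 17.0% in CTR and 34.6% and 29.4% in NPM1 KD, and 23 windows had both NPM1 KD libraries above CTR. In the other 28 windows it was 9.49% and 5.88% in CTR and 22.5% and 18.0% in NPM1 KD, with 15 windows above. Of all genes 24.9% lay above, but other genes were not split by unique words. The differences were 12.9 and 12.6 points, and no window of either kind had both NPM1 KD libraries below CTR. Only 9 of the 28 windows had fewer than 50% unique words. At the lowest end, Hist1h2bq, Hist1h2br, Hist1h2ao and Hist1h2ap had no broad peak in any library, so no difference could be read there.

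**Figure D5:**
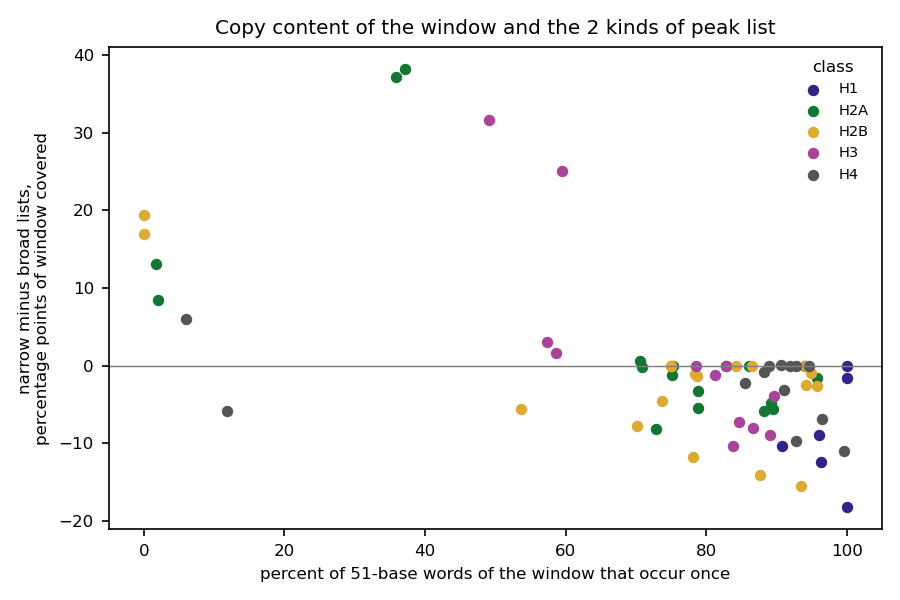
For each of the 67 histone genes, the percent of 51-base words of its window that occur once in the genome (horizontal) against the coverage by narrow peaks minus that by broad peaks, in percentage points averaged over the 4 libraries (vertical), coloured by class. Windows with few unique words reach 38.2 points, at Hist2h2aa1, and windows with more than 80% unique words lie near or below 0.

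No peak of either kind, in any library, touched 15 histone genes. Besides those named above by class they were the H2A genes Hist1h2ag, Hist1h2ab and Hist1h2aa. Hist1h1t, Hist1h2aa and Hist1h2ba are known as genes of the male germ line, and between 94.1% and 100% of the words of their windows occurred once in the genome. For all 15 the absence means only that no peak was called at this depth.

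Histone genes listed as replication-independent were more widely covered as a set. The replication-independent histone genes, 11 in the list used (among them H3f3a and H3f3b for H3.3, H2afz for H2A.Z and Cenpa for the centromeric H3), had a broad peak in all 4 libraries without exception. Their mean coverage was 75.1%, 74.7%, 81.1% and 76.1% in CTR 1, CTR 2, NPM1 KD 1 and NPM1 KD 2. Single genes ranged widely, from H2afy2 at 17.1%, 11.1%, 22.1% and 22.1% to H1f0 at 100% in each library. Both NPM1 KD libraries were above both CTR libraries in 4 of the 11 in covered length. The share was 24.9% of all genes, and 45.8% of other genes with a broad peak in any library. In summit fold 1 of the 11 lay above (8.62% of all genes) and 4 lay below (28.0% of all genes). The 13 genes for histone gene expression and mRNA processing factors, among them Npat for the coactivator and Slbp for the stem-loop binding protein, also had a broad peak in every library. Slbp was 88.2% and 87.8% covered in CTR and 93.9% and 93.3% in NPM1 KD, and Npat 57.3% and 48.0% against 53.5% and 58.0%, so that its groups overlapped. In covered length 5 of the 13 lay above and none below, beside 24.9% and 1.52% of all genes. Among other genes with a broad peak in any library the shares were 45.8% and 2.82%, so neither list exceeded that share above. In summit fold 2 of the 13 lay above and 3 below, beside 8.62% and 28.0% of all genes.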

How the data were processed

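H3K79me2 ChIP-seq peaks of 4 libraries, 2 CTR and 2 NPM1 KD, were used. According to the methods and the submitters' processing notes, paired-end reads of 51 bases were trimmed with Trimmomatic 0.38, aligned to mm10 with Bowtie2 2.3.4.1 and filtered by mapping quality, and peaks were called per library with MACS2, version 2.2.6 in the processing notes and another in the methods. The use of the pooled inputs in calling is not given in the sources used here. The deposited score column restates −log10 q on a whole-number scale. The deposited fold column is the ratio of pileup to background, at the summit in narrow lists and averaged in broad lists, and the authors gave −log10 p and −log10 q beside it.

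Windows of GENCODE M21 genes (body plus 1 kb each side) were read for the bases under broad peaks and for the highest narrow summit fold. No peak ended past its chromosome in GRCm38.p6. Summit pileup and background were solved from fold and p of the narrow peaks, as a relative depth. Tests were two-sided exact permutation tests over libraries and limma 3.58.1 (R 4.3.3) with Benjamini-Hochberg adjustment over all genes tested, on log2(covered bp + 500) for genes with a broad peak in any library and on log2 fold for genes with a narrow peak in all 4. Both fits were tested on simulated data. Words of 51 bases, stem-loops and promoters came from the RefSeq GRCm38.p6 sequence. Python 3.11.15, numpy 2.4.6, pandas 2.3.3, scipy 1.17.1 and matplotlib 3.10.9 were used.

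The members, lists and tests were chosen with earlier results of these data known. Genes named were, per class, those with the highest and lowest coverage, and those without peaks or with peaks in 1 group only. Among those whose groups did not overlap, the 3 with the largest difference in covered length and in fold per direction were named. Genes past an adjusted threshold in a fit that kept all 4 libraries, and those outside the large clusters, were named too. Not all genes past it only when 1 library was left out are named. Other members are named as examples chosen after their values were seen. The methods give each biological replicate its own passage and transfection batch, and replicate numbers were read as that batch, which would pair CTR with NPM1 KD. The methods do not say outright that a batch spans both groups. After subtraction of group means, CTR and NPM1 KD libraries with equal numbers correlated at 0.315 over all genes in covered length and 0.251 in fold, and at -0.065 and 0.074 over the histone genes.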

Additional observations from a re-analysis of the deposited data

How the results depend on the processing

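All 59 alternatives for covered length and counts of windows kept NPM1 KD above CTR, but many of them could not have done otherwise. Where the groups did not overlap, leaving out 1 library cannot reverse their order, and a count of windows above cannot be negative. Joining members only up to 100 kb left the Hist2 and Hist3 clusters unchanged. With only peaks of −log10 q of at least 5, the number of histone gene windows with both NPM1 KD libraries above both CTR libraries was 11 instead of 38, and with the gene body alone it was 17 (1 below). The share over all genes was not taken at these settings. The difference between histone genes and other genes in the shift of mean coverage was 10.9 points, and 6.22 with that q limit and 13.2 with 3 kb of flank. Leaving out each library in turn gave between 13 and 21 more windows with a broad peak (17 with all) and between 10.3 and 15.3 more points of mean coverage. The cluster differences were then 13.2 to 23.0 points for Hist2, 4.94 to 5.54 and 2.92 to 4.48 for the Hist1 blocks and 1.03 (without NPM1 KD 1) to 3.72 (without NPM1 KD 2) for Hist3.

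The limma fit on covered length called 0 histone genes in the main fit, with the replicate block and without any 1 library, 1 without the filter (Hist1h2ae) and 2 with a pseudocount of 100 bp (Hist1h2ae and Hist1h2ak). The fit on summit fold called 0, and 1 with the replicate block (Hist1h4j). Between 0 and 7 were called when 1 library was left out, 4 without NPM1 KD 1 and 7 without NPM1 KD 2, where 1684 and 373 of all genes were called and the lone library is assumed to vary like the other group. Hist2h2ac, 1 of those 4, was lower in NPM1 KD. The causes were not tested. Over all genes, the counts called in the fit on covered length ranged from 0 to 23 and in the fit on fold from 4 to 1684, against 1 and 13. Merging windows, requiring a summit inside the window and restricting to windows with at least 80% unique words were chosen after seeing the data. The depth in reads is unknown, which limits what a missing peak can say.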

Other observations

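Other protein-coding genes that overlap the histone gene clusters were read over their own windows. Trim17 and Bola1 extend past the ends of their clusters, so their values come in part from outside. There were 11 of them. In the second Hist1 block, Hfe, Trim38 and the 4 solute carrier genes Slc17a1, Slc17a2, Slc17a3 and Slc17a4 had no broad peak in any library. In the first block, Pom121l2 and Prss16 had none, and Zfp184, a zinc finger gene, was 14.7% and 10.5% covered in CTR and 17.2% and 13.9% in NPM1 KD, so its groups overlapped. In the Hist3 cluster, Trim17, which starts at the same annotated base as Hist3h2a, was 95.7% and 96.4% covered in CTR and 96.6% and 96.2% in NPM1 KD. Bola1, which reaches into the Hist2 cluster with its start, was at 9.31% and 5.79% in CTR and 10.2% and 11% in NPM1 KD. It was the only 1 of the 11 whose groups did not overlap.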
